A study of Mus musculus with 12 samples.

Results

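The livers were examined for 10 genes that encode enzymes of bile acid synthesis and conjugation: Cyp7a1, Cyp7b1, Cyp8b1, Cyp27a1, Cyp39a1, Cyp2c70, Baat, Slc27a5, Akr1d1 and Hsd3b7. They were chosen by name, and all 10 were found in both deposited count tables, among 20775 genes listed for the chow livers, 22709 for the livers of the HFCF diet and 20093 in both. Bulk RNA-seq was performed on 12 livers of male mice in 4 groups of 3, namely chow WT, chow HuRHep-/-, HFCF WT and HFCF HuRHep-/-. By their labels, all mice were C57BL/6N animals of 4 to 6 months with the HuR flox/flox allele of Elavl1, and the groups differ in the virus injected, AAV8-Tbg-Cre for HuRHep-/- and AAV8-Tbg-null for WT, and in the diet. Controls therefore also carried the floxed allele and a virus, and the Tbg promoter drives Cre in hepatocytes only, so that other liver cells keep the gene. The HFCF diet (40 kcal% from fat, 2% cholesterol and 20 kcal% from fructose) was given for 16 weeks. The study's methods give another model, in which Cre comes from a cross with an albumin-Cre line and the animals are younger. Which of these accounts is right cannot be read from the counts.

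Bile acids are made from cholesterol in hepatocytes and are the main route by which the body removes cholesterol. In the classic pathway CYP7A1 hydroxylates cholesterol at the start and sets the rate, HSD3B7 oxidizes the product, and CYP8B1 adds the hydroxyl group that makes cholic acid and so sets the ratio of cholic acid to other bile acids. In the alternative pathway CYP27A1 hydroxylates the side chain of cholesterol and CYP7B1 the ring of the resulting oxysterols, while CYP39A1 acts on 24-hydroxycholesterol. AKR1D1 reduces the ring, CYP2C70 makes the muricholic acids of mice, and SLC27A5 (bile acid-CoA ligase) and BAAT join bile acids to coenzyme A and then to taurine or glycine. Bile acids activate the nuclear receptor FXR (Nr1h4), which acts through SHP (Nr0b2) in the liver and through the intestinal hormone FGF15 on FGFR4 and beta-Klotho (Klb) to repress their own synthesis.

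Total counts ran from 30071731 to 35949203 per library, and every enzyme had at least 253 counts in each library. The target of the deletion, Elavl1 (HuR), was measured first as a check of the labels. It stood at 30.9, 29.3 and 31 CPM (counts scaled to library size with TMM factors) in chow WT livers and at 42.8, 39.2 and 38.8 CPM in chow HuRHep-/- livers. In the HFCF livers Elavl1 was at 23.9, 24.1 and 27.0 CPM in WT and at 32.4, 32.2 and 34.2 CPM in HuRHep-/-. In both diets Elavl1 had more, rather than fewer, counts under the HuRHep-/- label, by a log2 fold change of 0.41 in chow (adjusted p = 0.0220) and of 0.38 in HFCF (adjusted p = 0.0327, limma with Benjamini-Hochberg adjustment). This is opposite to the direction of the label. The counts are per gene and do not separate the floxed part of Elavl1 from the rest, so they cannot show whether that part was deleted. By qPCR, the study reports depletion of HuR in HuRHep-/- livers, which its methods describe as the albumin-Cre model. Each direction given below is that of the livers labelled HuRHep-/-. The 15 hepatocyte markers were detected in all groups, with a summed level of 91008 to 151150 CPM, and none of them was at 0.

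The enzymes are shown with the sequences at which the data can be read against known regulators. Promoters (250 bases before to 50 after the start site, RefSeq, GRCm38.p6) were available for 5 of the 10 genes, Cyp8b1, Cyp27a1, Cyp2c70, Akr1d1 and Hsd3b7. Each was searched on both strands for CAAAGTCCA, a motif of the hepatocyte receptor HNF4A, for AAGGTCA, a monomer site of nuclear receptors such as LRH-1 (Nr5a2), and for TTATGNAA, a motif of C/EBP and DBP factors. CAAAGTCCA was found in Cyp8b1 and Cyp2c70, and 0.475% of all 32851 promoters of this length hold it. TTATGNAA was found in Cyp27a1 and Akr1d1 and is held by 3.38% of all promoters, and AAGGTCA, held by 4.72%, was in none of the 5 windows. No motif found overlapped another. The promoters of Cyp8b1 and Cyp27a1 are printed because these enzymes were lower in the HFCF comparison, and that of Cyp2c70 because it holds the same 9 bases as Cyp8b1 at nearly the same place, from -64 to -56 against -67 to -59 from the start site. Capitals mark the motif, and a match is a description and not a binding site. The windows are chr9:121916256-121916555 on the minus strand for Cyp8b1, chr19:40187237-40187536 on the minus strand for Cyp2c70 and chr1:74713285-74713584 on the plus strand for Cyp27a1.
Cyp8b1: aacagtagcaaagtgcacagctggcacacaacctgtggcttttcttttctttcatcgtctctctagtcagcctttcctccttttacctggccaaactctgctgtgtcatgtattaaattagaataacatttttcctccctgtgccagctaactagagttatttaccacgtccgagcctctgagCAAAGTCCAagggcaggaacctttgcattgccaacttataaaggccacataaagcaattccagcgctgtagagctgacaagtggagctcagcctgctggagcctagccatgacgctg
Cyp2c70: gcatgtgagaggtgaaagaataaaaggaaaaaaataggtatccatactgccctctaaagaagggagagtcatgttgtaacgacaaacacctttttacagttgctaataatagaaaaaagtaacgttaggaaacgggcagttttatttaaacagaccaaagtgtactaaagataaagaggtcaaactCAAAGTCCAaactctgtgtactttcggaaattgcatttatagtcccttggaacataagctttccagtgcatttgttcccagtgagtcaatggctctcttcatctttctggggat
Cyp27a1: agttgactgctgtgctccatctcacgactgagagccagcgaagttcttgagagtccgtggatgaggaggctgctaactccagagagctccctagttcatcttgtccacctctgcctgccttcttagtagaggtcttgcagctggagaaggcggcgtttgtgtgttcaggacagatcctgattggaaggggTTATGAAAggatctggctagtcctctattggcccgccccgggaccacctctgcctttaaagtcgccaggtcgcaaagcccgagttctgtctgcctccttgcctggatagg

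HuR binds AU-rich stretches of messenger RNAs, mostly in the 3' UTR, for which the pentamer ATTTA (in DNA letters) is a common mark. In the GENCODE transcripts of GRCm38, Cyp7a1 held 9 ATTTA pentamers in its 3' UTR of 2600 bases, Cyp7b1 and Cyp27a1 held 2 each in 507 and 233 bases, Akr1d1 and Hsd3b7 held 1 each, and the remaining 5 enzymes held 0. Over 16286 genes, 63.6% held at least 1. Per kilobase this put Cyp27a1 (8.58) above 98.4% of genes, Cyp7b1 (3.94) above 88.3% and Cyp7a1 (3.46) above 84.7%. The sites below are stretches of 30 bases with the pentamers in capitals, shown for the 3 enzymes with more than 1, at chr4:6266965-6266994 on the minus strand for Cyp7a1, chr3:18072337-18072366 on the minus strand for Cyp7b1 and chr1:74737861-74737890 on the plus strand for Cyp27a1. A pentamer does not show that HuR binds there.
Cyp7a1: atatATTTAtatataaattatATTTAtctt
Cyp7b1: ttgaaaatggcaaATTTAtatttggttgag
Cyp27a1: gggtatgATTTAaaataaaATTTAaaattc

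Levels of different enzymes were compared per kilobase of exon, as CPM per kilobase. In chow WT livers the order by mean was Slc27a5 (394 ± 12.7, SD, n = 3), Cyp27a1 (253 ± 14.6), Cyp2c70 (201 ± 48.7), Cyp8b1 (167 ± 24.2), Cyp7b1 (149 ± 57.3), Hsd3b7 (145 ± 10.9), Baat (113 ± 6.67), Akr1d1 (30.4 ± 3.46), Cyp7a1 (22.4 ± 8.49) and Cyp39a1 (5.97 ± 2.14). Slc27a5 lay above Cyp27a1 in every liver, whereas the ranges of neighbours from Cyp27a1 down to Hsd3b7 overlapped. Hsd3b7 and Baat did not overlap, and neither did Akr1d1 and Cyp7a1 (27.6 to 34.3 against 12.6 to 27.3) or Cyp7a1 and Cyp39a1. Slc27a5 was first and Cyp39a1 last by mean in all 4 groups. Cyp7b1 held the fifth place in chow WT, the second in chow HuRHep-/- (231 ± 65.0) and the seventh in both HFCF groups (66.1 ± 39.5 in WT and 33.5 ± 7.01 in HuRHep-/-), places that depend on the length used, since per kilobase of the longest transcript they were the sixth, the fifth, the seventh and the eighth.

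**Figure D1:**
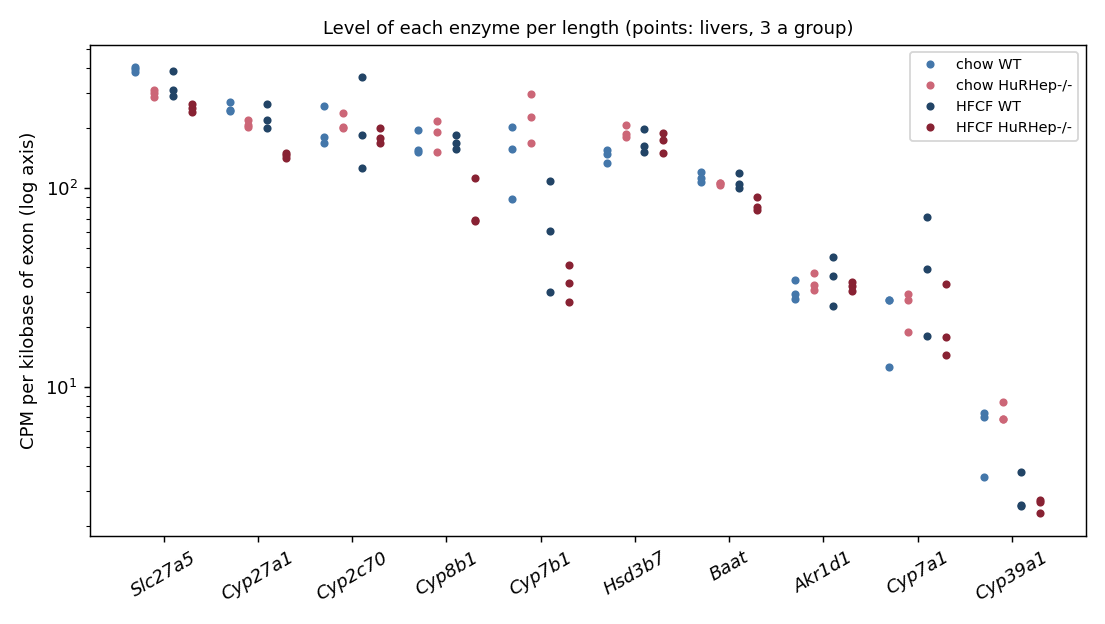
CPM per kilobase of exon (log axis) of the 10 enzymes, ordered by their mean in chow WT, with 1 point a liver and 3 livers in each of the 4 groups. Slc27a5 is the highest by mean and Cyp39a1 the lowest in every group, and Cyp7b1 moves from 149 in chow WT to 33.5 in HFCF HuRHep-/-.

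The enzymes differed widely in how much they varied between livers of the same group. The SD within groups, on the log2 CPM scale, was 0.69 for Cyp7a1 and 0.61 for Cyp7b1, above that of 93.2% and 91.0% of the genes tested. Baat (0.098), Cyp27a1 (0.12) and Slc27a5 (0.12) varied less than the median gene (0.18). Over the 12 livers, Cyp7b1 spanned 11.1-fold and Cyp7a1 5.68-fold, against 1.55-fold for Baat and Hsd3b7. The standard errors below follow this spread.

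**Figure D2:**
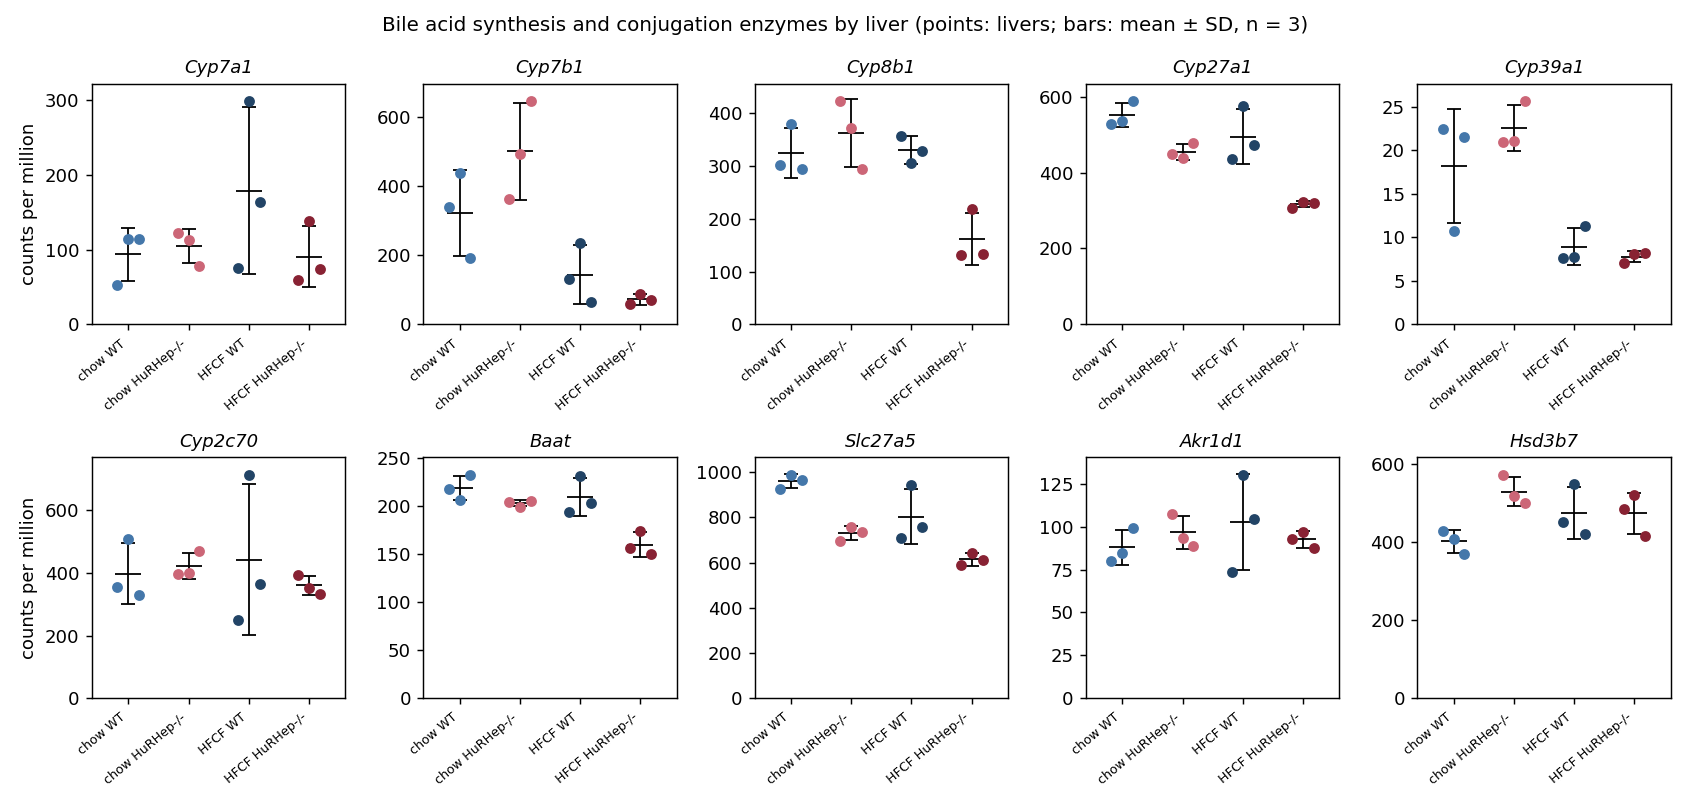
CPM (linear axis from 0) of each enzyme in each of the 12 livers, by group, with mean ± SD (n = 3). In Cyp8b1 and Cyp27a1 the 3 HFCF HuRHep-/- livers lie under all other livers, and in Cyp7a1 the spread within HFCF WT (75.3 to 298) covers most of the range of the other groups.

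In chow, 2 of the 10 enzymes passed an adjusted p of at most 0.05 between genotypes, a share to read against 4.18% of all 13526 genes tested. Hsd3b7 was higher and Slc27a5 lower in the livers labelled HuRHep-/-, and 0 of the 10 (3 at an unadjusted p under 0.05, beside 23.5% of all genes) were also changed by a fold of 1.5, the second criterion for a differentially expressed gene (DEG), which 2.23% of all genes met. The share of 4.18% itself rests on single livers, since 9 genes in all passed without chow HuRHep-/- replicate 2. The median log2 fold change of the 10 enzymes was 0.15, against 0.0049 for all genes, with 7 estimates above 0 and 3 under. This median ran from 0.058 (without chow WT replicate 1) to 0.24 (without chow HuRHep-/- replicate 3) when 1 liver was left out, and was 0.081 without chow HuRHep-/- replicate 1. Groups did not overlap for 4 of the 10 (Cyp27a1, Baat, Slc27a5 and Hsd3b7), beside 29.5% of all genes.

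Slc27a5, the ligase of the conjugation step (chr7:12988346-12998192 in GRCm38), measured 926, 987 and 967 CPM in chow WT and 697, 758 and 733 CPM in chow HuRHep-/-. All 3 HuRHep-/- livers lay under all 3 WT livers, with a log2 fold change of -0.39 (SE 0.073, adjusted p = 0.0312, limma). Hsd3b7 (chr7:127800604-127803802), which acts directly after CYP7A1, measured 429, 407 and 369 CPM in WT and 571, 518 and 499 CPM in HuRHep-/-. Its log2 fold change was 0.41 (SE 0.085, adjusted p = 0.0427), again without overlap. Of the 31-base words of the Hsd3b7 transcripts, 72.5% also occur in other genes, mainly Gm49388, which overlaps it on the same strand and is not listed in either table, so the Hsd3b7 counts are uncertain. Cyp7b1, Cyp39a1 and Akr1d1 each overlap 1 other annotated gene that is not listed in the tables, and for every enzyme but Hsd3b7 at most 0.375% of these words were shared. Setd1a, the upstream neighbour, chosen for this after values were seen, had 19.2 ± 1.69 CPM in chow WT and 17.5 ± 1.31 in chow HuRHep-/- (SD, n = 3) and so lay far under Hsd3b7. With each liver left out in turn, both genes kept their direction in all 6 fits and passed only without chow HuRHep-/- replicate 3 (adjusted p = 0.0481 for Slc27a5 and 0.0495 for Hsd3b7), with adjusted p up to 0.112 and 0.153 in the other fits.

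The hydroxylases did not pass in chow. Cyp27a1 stood at 529, 536 and 587 CPM in WT and at 448, 437 and 478 CPM in HuRHep-/-, without overlap but with an adjusted p of 0.0799 (limma) for a log2 fold change of -0.27. Cyp7b1 measured 340, 437 and 191 CPM in WT and 363, 494 and 645 CPM in HuRHep-/-. These groups overlapped, and the interval of the log2 fold change ran from -0.038 to 1.41 (95%, estimate 0.68, adjusted p = 0.233). For Cyp7a1, at 52.5, 114 and 114 CPM in WT and 122, 113 and 78.5 CPM in HuRHep-/-, the interval of -0.48 to 0.94 leaves a change in either direction unresolved. Cyp8b1, Cyp39a1, Cyp2c70, Baat and Akr1d1 had estimates between -0.10 (Baat) and 0.38 (Cyp39a1), with adjusted p between 0.373 and 0.710.

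In the HFCF livers, 3 of the 10 enzymes were lower in the livers labelled HuRHep-/- by adjusted p, Cyp8b1, Cyp27a1 and Baat, against 6.79% of all 14295 genes in either direction, and Cyp8b1 and Cyp27a1 were DEGs, against 3.62%. All 10 estimates were under 0, with a median of -0.40 against -0.0017 for all genes. When 1 liver was left out the median ran from -0.48 (without HFCF WT replicate 1) to -0.31 (without HFCF WT replicate 2), and in the latter fit 7 of 10 estimates were under 0. The share of 6.79% rests on single livers too, since 28 genes in all passed without HFCF HuRHep-/- replicate 1, 33 without HFCF HuRHep-/- replicate 2 and 45 without HFCF WT replicate 1. The groups did not overlap for 4 enzymes (the 3 named and Slc27a5), beside 36.8% of all genes. With library totals alone in place of TMM factors, the median of all genes moved to 0.15, the median of the enzymes to -0.25, and 8 of 10 estimates were under 0. The same change turned the split of all genes that passed from 407 higher and 564 lower to 1091 higher and 252 lower.

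Cyp8b1, the sterol 12-alpha-hydroxylase of cholic acid synthesis (chr9:121914356-121916305), measured 357, 305 and 328 CPM in HFCF WT and 132, 219 and 134 CPM in HFCF HuRHep-/-. The highest HuRHep-/- liver lay well under the lowest WT liver, and the WT livers of both diets overlapped. The log2 fold change was -1.09, a 2.12-fold lower level (SE 0.19, 95% interval -1.54 to -0.63, adjusted p = 0.0291, limma). Cyp27a1, the mitochondrial enzyme that opens the alternative pathway (chr1:74713574-74737892), measured 436, 575 and 473 CPM in WT and 307, 323 and 319 CPM in HuRHep-/-. The 3 HuRHep-/- livers lay close together, and the log2 fold change was -0.65 (SE 0.11, adjusted p = 0.0235). The same enzyme had the highest density of ATTTA pentamers among the 10, whereas Cyp8b1 held none.

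Of the conjugating enzymes, Baat (chr4:49489422-49506557) measured 194, 231 and 204 CPM in HFCF WT and 156, 174 and 150 CPM in HFCF HuRHep-/-, a log2 fold change of -0.40 (SE 0.091, adjusted p = 0.0463, limma). Slc27a5 measured 709, 941 and 759 CPM in WT and 588, 642 and 611 CPM in HuRHep-/-. Its groups did not overlap and its log2 fold change was -0.39 as in chow, with an adjusted p of 0.0795 (0.0304 in the fit on all 12 libraries). These calls depended on single livers. Cyp8b1 passed in 3 of 6 fits that left out 1 liver, without HFCF WT replicate 2 or 3 or HFCF HuRHep-/- replicate 2, Cyp27a1 in 2 (without HFCF WT replicate 2 or 3) and Baat in none. Adjusted p rose up to 0.121, 0.110 and 0.157, while the log2 fold changes stayed between -1.32 and -0.96 for Cyp8b1, -0.72 and -0.54 for Cyp27a1 and -0.47 and -0.33 for Baat.

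Cyp7a1 and Cyp7b1, the enzymes that varied most between livers of a group, did not pass in HFCF. Cyp7a1 (chr4:6265612-6275633) measured 75.3, 298 and 163 CPM in WT and 59.9, 138 and 74.3 CPM in HuRHep-/-. The groups overlapped, and the 95% interval of the log2 fold change, from -2.06 to 0.31 around -0.88, reaches from a large fall to a small rise (adjusted p = 0.285, limma, and 0.0354 with the replicate number as a block). Cyp7b1 (chr3:18071950-18243338) measured 131, 234 and 64.5 CPM in WT and 57.8, 88.1 and 71.5 CPM in HuRHep-/-, with a log2 fold change of -0.83 (adjusted p = 0.236). HFCF WT replicate 2 was the highest of its group in 8 of the 10 enzymes. Without it the log2 fold changes were -0.40 for Cyp7a1 and -0.38 for Cyp7b1, and without HFCF WT replicate 3 that of Cyp7b1 was -1.30 and passed (adjusted p = 0.0397). Cyp2c70 (chr19:40153353-40187333, at 250, 713 and 364 CPM against 394, 353 and 334 CPM), Akr1d1 (chr6:37530173-37568815), Cyp39a1 and Hsd3b7 had estimates between -0.19 and -0.014, with adjusted p of at least 0.475.

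**Figure D3:**
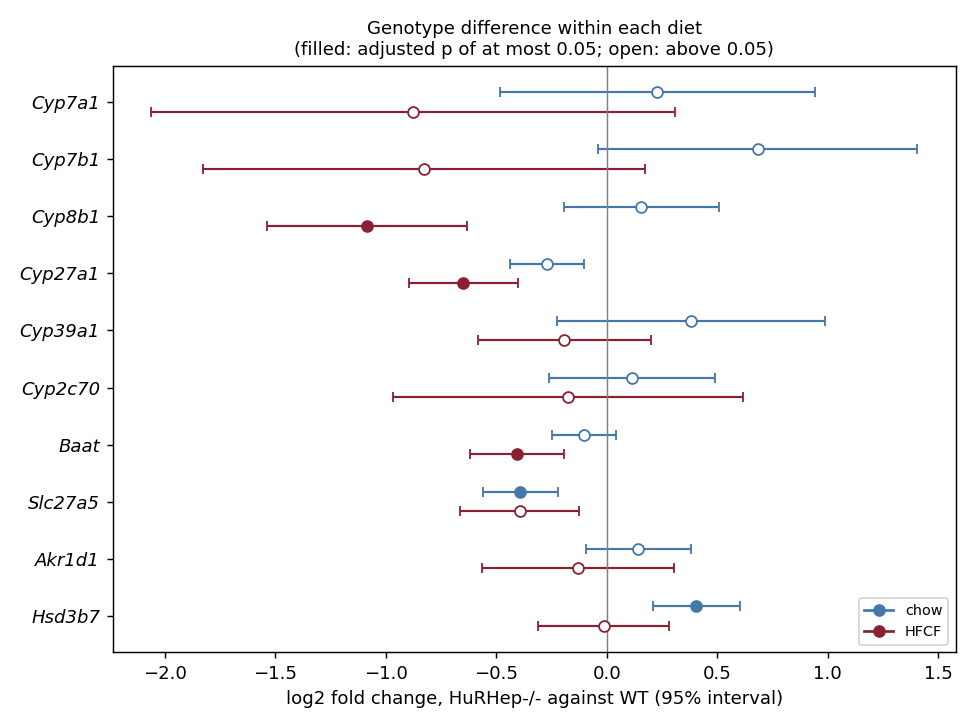
Log2 fold change of each enzyme, HuRHep-/- against WT, in chow (blue) and HFCF (red), with 95% intervals, filled where the adjusted p is at most 0.05. In HFCF all 10 estimates lie left of 0 and Cyp8b1 is the lowest at -1.09, and the intervals of Cyp7a1 and Cyp7b1 are the widest.

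The difference between both genotype effects was tested as an interaction over all 12 libraries. It was below 0 for 9 of the 10 enzymes, but 0 enzymes and 0 of all 14535 genes passed (0% called). At an unadjusted p under 0.05 were 5 of 10 enzymes (Cyp7b1, Cyp8b1, Cyp27a1, Baat and Hsd3b7) and 14.4% of all genes, and 0 enzymes passed in any alternative. Over all genes the interaction depended on 1 liver, since 41 passed without HFCF WT replicate 3 and at most 2 without any other, while voom weights called 1 gene and library totals alone 11. Cyp8b1 had the smallest p of the 10, with an interaction of -1.22 on the log2 scale (SE 0.27, unadjusted p = 0.00070, adjusted p = 0.128, limma). For Slc27a5 the interaction was 0.019 with a 95% interval of -0.28 to 0.32. So the lower Cyp8b1 and Cyp27a1 in HFCF were not shown to be particular to that diet.

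Diet was compared within each genotype, HFCF against chow. Each diet has its own table, so that diet and any batch between the tables cannot be told apart, and the comparisons in WT and HuRHep-/- use different livers but one estimate of the spread. In WT livers, 2 of the 10 enzymes were lower in HFCF, Cyp7b1 and Cyp39a1, both as DEGs, beside 24.2% of all genes by adjusted p and 9.38% as DEGs. The median of the enzymes was -0.019 against 0.0094 for all genes, 5 estimates lay on each side of 0, and 0 of 10 had groups without overlap, beside 37.6% of all genes. In the livers labelled HuRHep-/-, 5 enzymes were lower, Cyp7b1, Cyp8b1, Cyp39a1, Cyp27a1 and Baat, beside 38.9% of all genes, and the first 3 were DEGs, beside 19.1%. Here all 10 estimates were under 0 (median -0.31, against 0.0020) and 7 of 10 groups did not overlap, beside 54.6%. Measured with library totals alone, the median of all genes was 0.19 in WT and 0.23 in HuRHep-/-, the median of the enzymes was 0.16 and -0.081, and 3 of the 10 estimates in WT and 7 in HuRHep-/- were under 0.

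Cyp7b1, the oxysterol 7-alpha-hydroxylase, had the largest diet difference of the 10. In HuRHep-/- livers it went from 363, 494 and 645 CPM in chow to 57.8, 88.1 and 71.5 CPM in HFCF, a log2 fold change of -2.77 or 6.82-fold (SE 0.42, adjusted p = 0.00070, limma). In WT livers it went from 340, 437 and 191 CPM to 131, 234 and 64.5 CPM, with overlap between the diets and a log2 fold change of -1.28 (SE 0.42, adjusted p = 0.0434). The WT call was lost without any of 4 livers, chow WT replicate 1 or 2 and HFCF WT replicate 1 or 3 (adjusted p between 0.0892 and 0.154), whereas the call in HuRHep-/- was kept in all 6 fits.

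Cyp39a1, which hydroxylates 24-hydroxycholesterol (chr17:43667425-43751431), was the enzyme with the lowest counts. It measured 22.4, 10.7 and 21.6 CPM in chow WT against 7.65, 7.72 and 11.3 CPM in HFCF WT (log2 fold change -0.98, SE 0.25, adjusted p = 0.0153, limma). One chow WT liver at 10.7 CPM lay within reach of the HFCF livers. Without chow WT replicate 1 or 3 or HFCF WT replicate 1 its adjusted p was 0.0551 to 0.0667. In HuRHep-/- livers it went from 21.0, 21.0 and 25.6 CPM to 7.03, 8.03 and 8.24 CPM, without overlap (log2 fold change -1.53, adjusted p = 0.00097).

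Cyp8b1 was lower with the diet in HuRHep-/- livers and did not pass in WT, a contrast between genotypes that did not pass as an interaction. It was at 303, 380 and 294 CPM in chow WT and at 423, 372 and 294 CPM in chow HuRHep-/-, which overlapped with the 305 to 357 CPM of HFCF WT. The diet difference was 0.028 in WT (95% interval -0.39 to 0.44, adjusted p = 0.933, limma) and -1.19 in HuRHep-/- (SE 0.19, adjusted p = 0.00089). Cyp27a1 fell by 0.52 on the log2 scale in HuRHep-/- (adjusted p = 0.0017) and Baat fell by 0.35 (adjusted p = 0.0061), against -0.16 (adjusted p = 0.223) and -0.065 (adjusted p = 0.587) in WT. Cyp7a1 was the enzyme with the highest estimate of the diet in WT, 0.81 on the log2 scale, with a 95% interval of -0.21 to 1.83 and overlapping groups (adjusted p = 0.228). In HuRHep-/- it was at -0.27 (95% interval -1.30 to 0.75). Slc27a5 was at -0.27 in WT and -0.25 in HuRHep-/- (adjusted p = 0.0655 and 0.0618), and Cyp2c70, Akr1d1 and Hsd3b7 did not pass in either genotype.

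**Figure D4:**
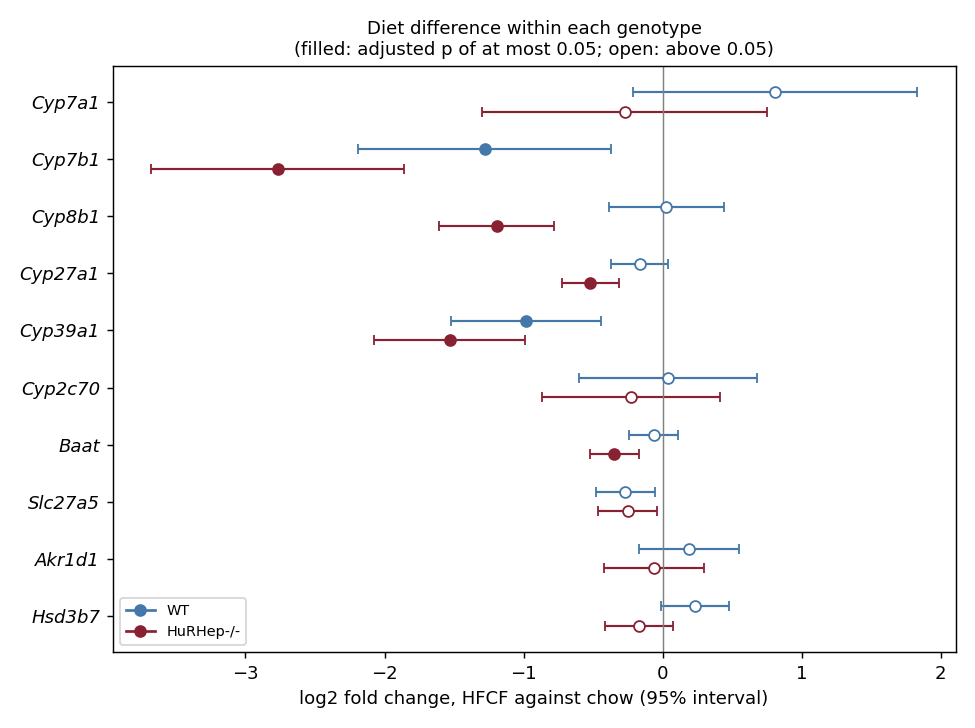
Log2 fold change of each enzyme, HFCF against chow, in WT (blue) and HuRHep-/- (red), with 95% intervals, filled where the adjusted p is at most 0.05. Cyp7b1 and Cyp39a1 are filled in both genotypes and Cyp8b1, Cyp27a1 and Baat only in HuRHep-/-, and the difference between the genotypes did not pass for any of the 10.

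Other genes of the same biology were read from gene lists, whose counts are to be read against the 6.79% of all genes that passed between genotypes in HFCF and the 4.18% in chow. Of 19 further bile acid synthesis genes, a list that lacks 1 gene dropped after its values were seen, so that its counts cover the remaining genes only, 3 were lower and 0 higher in HFCF HuRHep-/- livers (median -0.24). Cyp46a1, the cholesterol 24-hydroxylase that makes the substrate of CYP39A1, stood at 6.91, 6.32 and 5.62 CPM in HFCF WT and 1.62, 2.33 and 1.91 CPM in HFCF HuRHep-/- (log2 fold change -1.71, adjusted p = 0.0089, limma), a low but separate level. Abcd3 (-0.54) and Slc27a2 (-0.67), which serve the import and activation of the side chain intermediates and of fatty acids, were lower too (log2 fold changes, adjusted p = 0.0244 and 0.0377, limma). In chow, 1 of 18 genes tested passed, a share near the 4.18% of all genes, the peroxisomal thioesterase Acot8, which was higher (0.40, adjusted p = 0.0400).

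Of the 19 bile acid regulators tested, 0 passed between genotypes in either diet by limma, with or without voom weights, and 6 in chow and 5 in HFCF had an unadjusted p under 0.05, near the 23.5% and 29.5% of all genes that did. Nr1h4 (FXR) had a log2 fold change of -0.0092 in chow and -0.23 in HFCF (adjusted p = 0.956 and 0.125, limma). Nr0b2 (SHP), which represses Cyp7a1 and Cyp8b1, was at 49.0, 63.3 and 42.7 CPM in chow WT and at 11.6, 36.1 and 47.5 CPM in chow HuRHep-/- (adjusted p = 0.282). In the HFCF livers Nr0b2 overlapped as well, at 53.1, 38.6 and 58.5 CPM in WT and 51.8, 41.2 and 38.0 CPM in HuRHep-/- (adjusted p = 0.471). Nr5a2, Hnf4a, Fgfr4 and Klb had estimates between -0.055 and 0.32 in the genotype comparisons. With the HFCF diet, 5 of the 19 regulators passed in WT, 1 higher and 4 lower, beside 24.2% of all genes. In HuRHep-/- 6 of 19 passed, all lower, beside 38.9% of all genes. Among them, Hnf4a fell by 0.51 in WT and by 0.47 in HuRHep-/- on the log2 scale (adjusted p = 0.0026 and 0.0020, limma), Klb fell by 0.49 and 0.78 (adjusted p = 0.0210 and 0.0013), and Nr1h4 fell by 0.31 and 0.50 (adjusted p = 0.0198 and 0.00098).

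Among 18 bile acid transporters tested in HFCF, 1 was higher and 3 were lower in the livers labelled HuRHep-/-, beside 6.79% of all genes. Slco1a4, a sinusoidal uptake carrier, was higher (1.05, adjusted p = 0.0441, limma), and the uptake carriers Slco1b2 (-0.59, adjusted p = 0.0235) and Slco2b1 (-0.45, adjusted p = 0.0459) and the export pump Abcg2 (-0.37, adjusted p = 0.0268) were lower. Abcb11, the bile salt export pump, measured 243, 284 and 232 CPM in WT and 186, 200 and 151 CPM in HuRHep-/-, without overlap, with an adjusted p of 0.0526 (log2 fold change -0.52). The uptake carrier Slc10a1 (NTCP) was at -0.44 with an adjusted p of 0.101. In chow 0 of 17 passed by limma, also with voom weights, and 4 had an unadjusted p under 0.05, the 23.5% seen over all genes, where Slc10a1 was at 0.15 and Abcb11 at -0.23 (unadjusted p = 0.108 and 0.0403). Of the genes induced by FXR in the liver, 2 of 11 were lower in chow, beside 4.18% of all genes, Fetub (-0.41, adjusted p = 0.0223) and Ces2a (-0.44, adjusted p = 0.0461), and 0 of 12 passed in HFCF (6 at an unadjusted p under 0.05, beside 29.5% of all genes, and 1 passed with voom weights), where Fetub and Ces2a were at -0.48 and -0.59 (adjusted p = 0.0604 and 0.0560).

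**Figure D5:**
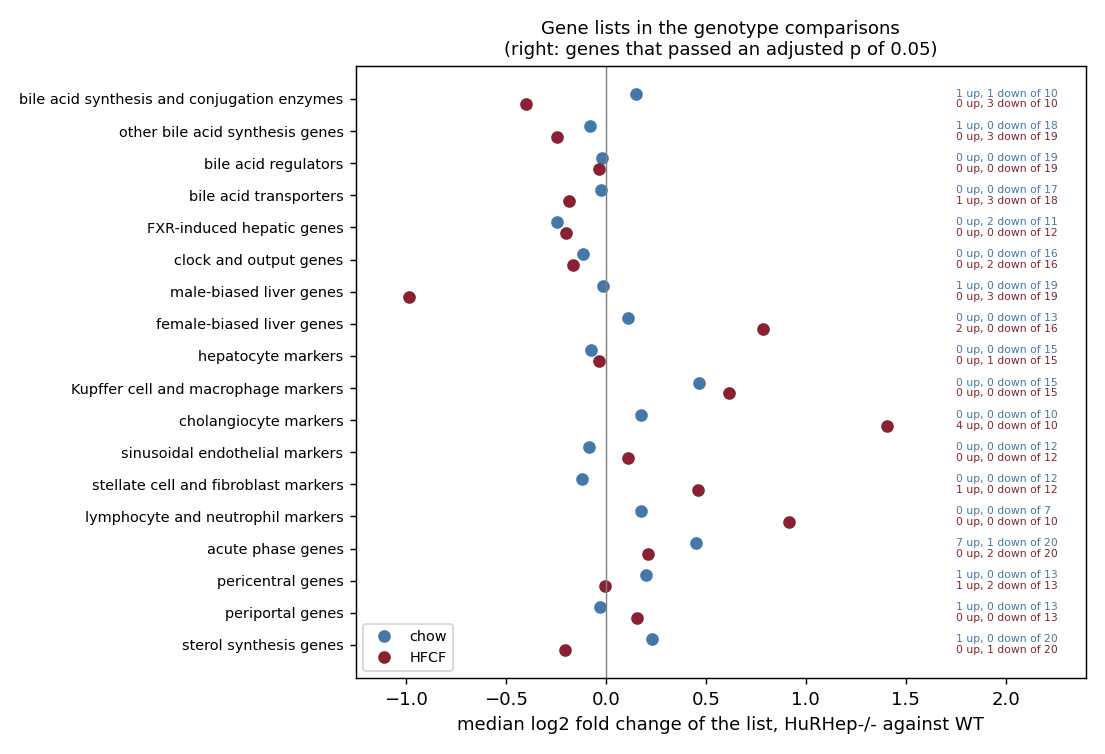
Median log2 fold change of each gene list, HuRHep-/- against WT, in chow (blue) and HFCF (red), with the number of genes of the list that passed an adjusted p of 0.05 upward and downward. The median of the enzymes is 0.15 in chow (0.058 to 0.24 with 1 liver left out) and -0.40 in HFCF (-0.48 to -0.31), and the largest medians in HFCF are those of cholangiocyte markers (1.41) and male-biased liver genes (-0.98).

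Other features of the livers moved with the same groups, and their part in the results above was not tested. In chow, 8 of 20 acute phase genes passed between genotypes, 7 higher and 1 lower (median 0.45), beside 4.18% of all genes. In HFCF 2 of 20 passed, both lower, beside 6.79%. Hepatocyte markers summed to 126380 to 151150 CPM in chow WT and 108750 to 121130 CPM in chow HuRHep-/-, and 0 of 15 passed there. In the whole liver, fewer cells of a type and less RNA per cell cannot be told apart. Cholangiocyte markers had a summed level of 58.5 to 110 CPM in HFCF WT and of 158 to 276 CPM in HFCF HuRHep-/-, with 10 of 10 tested estimates higher and 4 passed (Krt7, Krt19, Muc1 and Ehf). Most of each sum was Spp1, which did not pass, at 75.7, 30.7 and 77.7 CPM in HFCF WT and 144, 115 and 215 CPM in HFCF HuRHep-/-. The highest by mean of those that passed, Krt7, was at 1.67 and 4.38 CPM. Kupffer cell and macrophage markers summed to 395 to 709 CPM in HFCF WT and 705 to 937 CPM in HFCF HuRHep-/-, with 15 of 15 estimates higher and 0 passed by limma, also with voom weights (7 at an unadjusted p under 0.05, beside 29.5% of all genes), and to 258 to 339 and 343 to 502 CPM in chow. Stellate cell markers summed to 310 to 594 CPM in HFCF WT and 571 to 688 CPM in HFCF HuRHep-/- (1 of 12 passed). Lymphocyte and neutrophil markers were low, with summed levels of 5.15 to 7.42 CPM in HFCF WT and 8.15 to 10.1 CPM in HFCF HuRHep-/-, 9 of 10 estimates higher and 0 passed by limma, also with voom weights (6 at an unadjusted p under 0.05, beside 29.5% of all genes). Sinusoidal endothelial markers overlapped (198 to 236 against 228 to 234 CPM). Of the hepatocyte markers, 1 of 15 was lower in the HFCF genotype comparison, Apob, and their median was -0.037. Genes of pericentral hepatocytes summed to 10549 to 12162 CPM in HFCF WT and 7285.5 to 8693.5 CPM in HFCF HuRHep-/-, and 3 of 13 passed, Cyp2e1 (-0.76) and Slc1a2 (-0.78) lower and Rhbg (1.02) higher (log2 fold changes, adjusted p = 0.0463, 0.0216 and 0.0396, limma). By gene, 6 estimates were higher and 7 lower (median -0.0051), so the lower sum does not describe the list as a whole. Periportal genes overlapped (51749 to 57054 against 49175 to 53592 CPM), with 9 of 13 estimates higher and 0 passed. With the diet, 6 of 15 hepatocyte markers were lower in WT and 6 lower and 1 higher in HuRHep-/-, with medians of -0.51 and -0.43, beside 24.2% and 38.9% of all genes that passed.

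Sex-biased liver genes and the clock also bear on these enzymes, since Cyp7b1 is a male-biased gene of mouse liver and Cyp7a1 has a daily rhythm. Of 19 male-biased genes, other than Cyp7b1, 19 were under 0 in HFCF HuRHep-/- against WT (median -0.98, 3 passed, beside 6.79% of all genes), and 19 of 19 passed and were lower in HFCF against chow within HuRHep-/- (median -1.79), beside 38.9% of all genes. In WT 7 of 19 passed, all lower with the diet (median -0.87), beside 24.2%. In each group, the liver with the lowest Cyp7b1 was also the lowest in most of the 19. This was chow WT replicate 3 in 12 of 19, chow HuRHep-/- replicate 1 in 14 and HFCF HuRHep-/- replicate 1 in 13. HFCF WT replicate 3 was the lowest in 17 of the 19. Hsd3b5, chosen after its values were seen, was at 73.2, 207 and 5.72 CPM in HFCF WT and 1.82, 5.49 and 8.35 CPM in HFCF HuRHep-/-. HFCF WT replicate 3 thus lay within the range of the livers labelled HuRHep-/-. Without it, all 19 male-biased estimates were again under 0 in the HFCF genotype comparison and 12 of them passed (median -1.28), beside 1280 of all 14195 genes. For the diet in WT, 17 of 19 were then under 0 and 4 passed (median -0.55), beside 2101 of all 14473 genes. Female-biased genes summed to 63.4 to 162 CPM in HFCF WT and 222 to 339 CPM in HFCF HuRHep-/-, with 2 of 16 passed and higher, and 6 of 16 without that liver. It was the highest HFCF WT liver in 12 of 17 female-biased genes, among them Cyp2b9, likewise chosen, at 2.08, 0.611 and 39.4 CPM against 41.7, 23.0 and 29.9 CPM in HFCF HuRHep-/-.

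The clock output gene Dbp was at 165, 178 and 117 CPM in HFCF WT and 177, 163 and 167 CPM in HFCF HuRHep-/-. Nr1d1 was at 67.7, 57.4 and 29.9 CPM in HFCF WT and 87.0, 77.8 and 60.0 CPM in HFCF HuRHep-/-. In chow Nr1d1 was at 99.7, 87.2 and 57.5 CPM in WT and 111, 107 and 73.3 CPM in HuRHep-/-. It thus fell from replicate 1 to replicate 3 in every group. Neither Dbp nor Nr1d1 passed in any of the 4 comparisons by limma (adjusted p of at least 0.103). Of 16 clock and output genes tested, 2 passed between genotypes in HFCF, Cry1 (-0.78, adjusted p = 0.0407, limma) and Nfil3 (-0.57, adjusted p = 0.0365), both lower, beside 6.79% of all genes. Per1 and Ciart, chosen after their values were seen, set replicate 1 apart in both HFCF groups, where Cyp7a1 was also lowest. Per1 was at 20.1, 37.6 and 34.8 CPM in HFCF WT and 10.6, 40.4 and 44.0 CPM in HFCF HuRHep-/-. Ciart was at 9.05, 22.6 and 17.9 CPM in HFCF WT and 5.41, 13.5 and 19.1 CPM in HFCF HuRHep-/-. Dbp was not lowest in replicate 1 of either HFCF group. In chow HuRHep-/- replicate 1 had the lowest Per1 (19.0 against 43.4 and 42.8 CPM) but the highest Cyp7a1 of its group. In chow WT replicate 1 had the lowest Cyp7a1 (52.5 against 114 and 114 CPM) but not the lowest Per1 (34.8 against 33.5 and 37.6 CPM).

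The genes whose profile over the 12 livers was most like that of an enzyme were taken from 10207 genes with a mean of at least 100 counts. These correlations are descriptions, since the 12 livers share 4 groups and library scaling. Cyp7b1 was most like Selenbp2 (Pearson r = 0.98), C8b (0.97) and Rnf4 (0.97). Cyp8b1 was most like Trappc8 (0.95), Gtf3c3 (0.95) and Rnmt (0.94), and Cyp7a1 was most like C4bp (0.84), Akr1d1 (0.83), itself one of the 10 enzymes, and Map3k4 (0.82). Among the enzymes, Cyp27a1 and Baat had r = 0.96 over the 12 livers and 0.80 after group means were removed, and Cyp27a1 and Slc27a5 0.93 and 0.84. Cyp7a1 and Akr1d1 had 0.83 and 0.85, so that livers of one group with high Cyp7a1 also had high Akr1d1. Cyp7a1 and Cyp7b1 had 0.031 over the 12 livers, and Cyp8b1 and Cyp27a1 had 0.75 over all livers but -0.27 within groups.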

How the data were processed

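Total RNA of mouse liver, with RNA integrity numbers above 6.0 per the labels, was sequenced after stranded library preparation. Alignment to GRCm38.p6 and counting were done by the authors in CLC Genomics Workbench, and the deposited gene counts, unnormalized, come as one table per diet. Their digits are grouped with commas, for which reason limma on log2 CPM was chosen, although all values were whole counts once the commas were dropped. Names that a spreadsheet had changed to dates (23 for chow, 27 for HFCF) were restored by identifier.

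From these counts log2 CPM was computed here with a pseudocount of 0.5 and TMM factors (trims of 0.3 and 0.05). A gene was tested if at least 3 libraries reached what 10 counts are in a library of median size and all libraries together held 15 counts, so that 13526 genes entered for chow, 14295 for HFCF and 14535 over the 12 libraries. Tests were made with limma 3.58.1 (R 4.3.3, variance trend, Benjamini-Hochberg over all genes). CPM values printed were scaled over the 12 libraries. DEGs met 3 criteria, an adjusted p no higher than 0.05, a fold change no lower than 1.5, and 10 counts or more over each group in place of the RPKM limit of the study's methods. Genotypes were compared in the 6 libraries of a diet, and diet and the interaction over 12. For a single gene, 3 livers against 3 leave an exact permutation p no lower than 0.1. P-values measure the spread between these livers.

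Named were the 10 enzymes, the genes of the bile acid lists called between genotypes (at most 4 a list and comparison), 8 preset regulators and transporters, Dbp, Nr1d1, Elavl1 and the 3 genes most like Cyp7a1, Cyp8b1 and Cyp7b1. The markers Krt7, Krt19, Muc1, Ehf, Spp1, Apob, Cyp2e1, Slc1a2 and Rhbg, the sex-biased Hsd3b5 and Cyp2b9, the clock genes Cry1, Nfil3, Per1 and Ciart and the neighbour Setd1a were named after their values were seen. The enzymes and lists were chosen with earlier results of these data known, and 1 gene of the further bile acid synthesis list, dropped from it after its values were seen, is not reported here. Fits were tested on simulated data. Gene positions are from GENCODE for GRCm38. As alternatives, the scaling (RLE, upper quartile), the filter, the pseudocount (2), voom weights, the replicate block, the set of libraries and a test against a fold change of 1.5 were varied, and each liver was left out in turn. Library totals alone, and the sex-biased lists without HFCF WT replicate 3, were added after seeing the data.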

Additional observations from a re-analysis of the deposited data

How the results depend on the processing

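RLE factors, a pseudocount of 2 and voom weights left every count of enzymes that passed, in each of the 5 comparisons, as reported. In chow, where 2 enzymes passed by adjusted p, 1 passed without a filter on low counts, with the fit on all 12 libraries and with library totals alone, and 0 passed in the test against a fold change of 1.5. In HFCF that test called 0 enzymes by either criterion, and library totals alone left 1 DEG (Cyp8b1). Baat lost its call there (-0.25, adjusted p = 0.0651, limma) and with upper-quartile factors (-0.35, adjusted p = 0.0556), and Slc27a5 passed with all 12 libraries (-0.38, adjusted p = 0.0304). For the diet in WT, the fit on only the 6 WT libraries and the test against a fold change of 1.5 called 0 enzymes by either criterion, and library totals alone left 1 DEG (Cyp39a1), while Hsd3b7 passed upward (0.41, adjusted p = 0.0148, limma) and Cyp7b1 did not pass (-1.10, adjusted p = 0.0607). For the diet in HuRHep-/- the test against a fold change of 1.5 called 2 enzymes (Cyp7b1 and Cyp39a1) where 5 passed, Baat was lost with library totals alone (-0.12, adjusted p = 0.160), and Slc27a5 passed with only the 6 HuRHep-/- libraries (-0.25, adjusted p = 0.0228). The interaction called 0 enzymes under every alternative run, and the adjusted p of Cyp8b1 was at least 0.108. With library totals alone, the share of all genes that passed and were higher moved from 54.4% to 73.0% (genotype in chow), 41.9% to 81.2% (genotype in HFCF), 46.8% to 82.4% (diet in WT) and 50.7% to 84.4% (diet in HuRHep-/-), as the median of all genes moved to 0.085, 0.15, 0.19 and 0.23.

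Estimates near 0 changed sign. For the genotype in HFCF, Hsd3b7 was at 0.038 with upper-quartile factors, 0.00056 with at least 10 counts in every library, 0.0018 with all 12 libraries and 0.14 with library totals alone, where Akr1d1 was at 0.022. For the diet with library totals alone, Cyp27a1 was at 0.017 and Baat at 0.12 in WT, and Cyp2c70 was at 0.0010, Akr1d1 at 0.17 and Hsd3b7 at 0.062 in HuRHep-/-. Akr1d1 was at 0.020 there with upper-quartile factors.

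With each liver left out in turn, the number of enzymes that passed by adjusted p ran from 0 to 2 (genotype in chow), 0 to 3 (genotype in HFCF, DEGs also 0 to 3), 0 to 4 (diet in WT, DEGs 0 to 2), and stayed at 5, of which 3 DEGs, for the diet in HuRHep-/-. Over all genes, the number that passed in chow was 566 with every liver and ran from 9 (without chow HuRHep-/- replicate 2) to 535 (without chow WT replicate 2), and it was 136 without chow WT replicate 1, 88 without chow WT replicate 3 and 114 without chow HuRHep-/- replicate 1. The number in HFCF was 971 with every liver and ran from 28 (without HFCF HuRHep-/- replicate 1) to 1280 (without HFCF WT replicate 3), and it was 45 without HFCF WT replicate 1, 33 without HFCF HuRHep-/- replicate 2 and 117 without HFCF HuRHep-/- replicate 3. Log2 fold changes that changed sign ran, for the genotype in chow, from -0.15 to 0.42 (Cyp7a1) and from -0.0074 to 0.31 (Cyp2c70). For the genotype in HFCF they ran from -0.28 to 0.0012 (Cyp39a1), -0.50 to 0.24 (Cyp2c70), -0.34 to 0.058 (Akr1d1) and -0.088 to 0.095 (Hsd3b7). For the diet they ran from -0.041 to 0.14 (Cyp8b1 in WT), -0.37 to 0.38 (Cyp2c70 in WT) and -0.12 to 0.017 (Akr1d1 in HuRHep-/-), and for the interaction from -0.61 to 0.15 (Cyp2c70) and -0.065 to 0.14 (Slc27a5).

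Replicate numbers are shared by the groups. Deviations of same-numbered livers from their group means correlated by -0.14 to 0.19, in no comparison over 0.1 for every pair, and the main fits did not take the numbers to pair livers. In HFCF all 6 livers correlated best with their own number, and Nr1d1 fell from replicate 1 to replicate 3 in every group. These are hints from the data only, and whether the number marks a factor shared by the groups was not tested. With the replicate block, 1 enzyme passed for the genotype in chow, 4 for the genotype in HFCF (3 DEGs), 3 for the diet in WT, 6 for the diet in HuRHep-/- and 0 for the interaction. Of all genes, 341 of 13526 passed in these fits for the genotype in chow and 1342 of 14295 (764 DEGs) for the genotype in HFCF. For the diet 3564 of 14535 passed in WT and 5717 of 14535 in HuRHep-/-, and 0 passed for the interaction. Cyp7a1 was the enzyme added in HFCF (-0.88, adjusted p = 0.0354, limma). Per kilobase of the longest transcript in place of all exons, 6 enzymes kept their place in the order in chow HuRHep-/-, 7 in chow WT, 8 in HFCF HuRHep-/- and 10 in HFCF WT. The limit of all these calls is 3 livers a group: the causes of the changes between settings were not tested.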
